A study of Mus musculus with 12 samples.

Results

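The expression of 10 genes was followed here, whose products load the replicative helicase onto DNA or control that step, namely Orc6, the 6 subunit genes Mcm2 to Mcm7, Cdc6, Cdt1 and Gmnn. Before a cell copies its genome, the origin recognition complex, of which ORC6 is a subunit, binds origins and, with CDC6 and CDT1, places rings of MCM2 to MCM7 around the DNA. This step is called licensing, and geminin, the product of Gmnn, binds CDT1 and blocks it until the next cycle. A fully grown oocyte does not replicate DNA during meiosis but stores mRNA and protein on which the first embryonic cycles draw.

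All 10 genes were found by symbol among the 24255 genes of the deposited table, and all 10 were among the 11233 genes tested, which reached 1 FPKM in any of the 12 libraries. FPKM counts sequenced fragments relative to transcript length and to a scale set for each library, so levels can be set side by side between genes. That scale differed between the groups, as given below. Each library held 20 oocytes at the germinal vesicle (GV) stage, collected 46 h after 5 IU of PMSG, a gonadotropin that stimulates follicle growth, from C57BL/6 females of 3 weeks. The 4 groups of 3 libraries were wild type (WT), the D166G missense mutant of Dpagt1 (MUT), the oocyte-specific knockout Dpagt1F/F Gdf9CRE/+ (GcKO) and the granulosa cell-specific knockout Dpagt1F/F Amhr2CRE/+ (AmcKO). Dpagt1 encodes the enzyme of the first step of protein N-glycosylation. In GcKO, Cre is driven by Gdf9 and deletes the floxed alleles within the oocyte. In AmcKO, Amhr2-driven Cre acts in the surrounding somatic cells, so the sequenced oocyte itself is not the targeted cell. The labels of the WT group name neither a floxed allele nor a Cre, and no library of floxed females without Cre was analysed here. Nothing in the labels says that the libraries of a group came from separate females, so p-values measure the spread between these libraries. Replicate numbers are 1 to 3 in MUT and GcKO but 4 to 6 in WT and AmcKO, so genotype and any collection round behind these numbers cannot be told apart.

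The sum of FPKM over all genes was 1167362 to 1226005 per WT library. It was lower elsewhere, with 883256 to 1107925 for AmcKO, 589617 to 611597 for MUT and 482314 to 684212 for GcKO. From the smallest steps between low values, 1 fragment weighed 2.28 to 2.66 times as much in WT as in MUT replicate 2, against 1.00 to 1.21 for the MUT libraries, 0.901 to 1.51 for GcKO and 1.21 to 1.51 for AmcKO. Low genes therefore rested on fewer fragments in WT. The targeted gene could not serve as a check of the labels, because Dpagt1 was listed at 0 in every WT and AmcKO library, at 0, 0.366 and 0 FPKM in GcKO and at 0.878, 0.408 and 0.985 FPKM in MUT.

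All 12 oocyte markers were detected in each group. Their summed FPKM was 15980 to 17780 in WT libraries, against 8776 to 10060 for MUT, 8036 to 11090 for GcKO and 11690 to 13250 for AmcKO. The sum was thus lower in the libraries in which Orc6 and Gmnn were lower, and its part in those differences was not tested. Dividing granulosa cells also express the ring subunits, so their markers were measured as well. Of 12 granulosa cell markers, 4 were above 0 in any WT library, 8 in MUT, 8 in GcKO and 6 in AmcKO, while the defining genes Amh, Amhr2 and Foxl2 were at 0 in all libraries. Cyp19a1 made most of the WT sum, at 15.1 to 20.1 FPKM, with 8.88 to 13.4 FPKM for MUT and values that overlapped WT for GcKO (6.70 to 20.9) and AmcKO (9.97 to 19.2). The other 11 markers summed to 2.53 to 3.93 FPKM per WT library and 1.47 to 3.45 FPKM per AmcKO library, against 7.51 to 17.7 FPKM for MUT and 7.03 to 8.90 FPKM for GcKO. Without Cyp19a1, MUT and GcKO thus lay above WT, in the same libraries in which ring and loader genes were higher. With Cyp19a1, the sum of all 12 markers overlapped WT in MUT, GcKO and AmcKO. Genes of any kind above 0 numbered 9359 to 9622 per WT library. They numbered 11208 to 11467 for MUT, 10733 to 11608 for GcKO and 10399 to 10921 for AmcKO. Detection at large was thus also higher outside WT. The part of the granulosa cell markers in the ring and loader difference was not tested. Another 9 markers, of theca, stroma and blood, summed to 6.19 to 11.9 FPKM in WT, 3.26 to 3.74 FPKM for MUT, and 4.33 to 7.96 FPKM for GcKO and 3.25 to 7.45 FPKM for AmcKO, both of which overlapped WT. In bulk libraries, fewer cells of a type and less RNA per cell cannot be told apart.

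The 10 genes lie on 7 mouse chromosomes of the GRCm38 build. The gene whose transcript was most abundant, Orc6 (ENSMUSG00000031697), occupies chr8:85299632-85308278 on the forward strand, and Gmnn (ENSMUSG00000006715) occupies chr13:24751845-24761923 on the reverse strand. In the GENCODE M21 annotation, Orc6 overlaps Vps35 on the opposite strand by 171 bases, and Smart-seq2 does not mark the strand. Vps35 was at 14.9 ± 3.47 FPKM in WT (SD, n = 3), far below Orc6. Mcm7 overlaps Ap4m1 by 421 bases and Cops6 by 64 bases on the opposite strand, and it hosts Mir25, Mir93 and Mir106b, which were listed at 0 in every library. Cops6, at 38.7 FPKM on average in WT, 21.3 in MUT and 24.0 in GcKO, was far more abundant than Mcm7. All of Cdt1 lies within the annotated locus Gm20388 on the same strand, so reads of the pair cannot be separated.

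Promoters of 8 of the genes were found in the RefSeq records of GRCm38.p6, which run from 250 bases before to 50 bases after the annotated start. Mcm4 and Gmnn had no record. Of the 8 found, 4 are shown as examples chosen with the results known, namely Orc6, which fell in the mutant and the oocyte-specific knockout against WT, Mcm3 and Cdt1, which rose, and Mcm6, which held the most copies of the first motif below. Capitals mark the letters TTTNGCGC, a form of the site bound by E2F factors, and CCAAT, the box bound by NF-Y, on either strand. The records span chr8:85299382-85299681 on the forward strand for Orc6, chr1:20820263-20820562 on the reverse strand for Mcm3, chr1:128359656-128359955 on the reverse strand for Mcm6 and chr8:122567765-122568064 on the forward strand for Cdt1. Each is written 5′ to 3′ along its gene.
Orc6: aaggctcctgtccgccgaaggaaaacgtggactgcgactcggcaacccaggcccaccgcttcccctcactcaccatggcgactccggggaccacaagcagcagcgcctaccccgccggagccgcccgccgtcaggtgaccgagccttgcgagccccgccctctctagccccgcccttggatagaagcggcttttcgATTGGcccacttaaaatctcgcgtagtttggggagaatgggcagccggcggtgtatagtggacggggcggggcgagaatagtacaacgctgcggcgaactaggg
Mcm3: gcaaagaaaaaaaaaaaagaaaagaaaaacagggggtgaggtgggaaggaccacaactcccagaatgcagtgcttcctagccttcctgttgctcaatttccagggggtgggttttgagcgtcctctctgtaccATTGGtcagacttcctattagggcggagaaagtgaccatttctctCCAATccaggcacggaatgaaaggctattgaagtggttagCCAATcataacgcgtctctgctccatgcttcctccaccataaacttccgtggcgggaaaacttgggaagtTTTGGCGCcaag
Mcm6: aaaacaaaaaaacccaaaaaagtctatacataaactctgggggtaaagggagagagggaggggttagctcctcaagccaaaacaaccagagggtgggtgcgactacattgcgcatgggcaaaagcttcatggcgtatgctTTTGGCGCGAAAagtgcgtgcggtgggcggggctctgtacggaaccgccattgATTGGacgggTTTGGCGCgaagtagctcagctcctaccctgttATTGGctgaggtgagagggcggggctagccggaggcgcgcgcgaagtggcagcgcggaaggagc
Cdt1: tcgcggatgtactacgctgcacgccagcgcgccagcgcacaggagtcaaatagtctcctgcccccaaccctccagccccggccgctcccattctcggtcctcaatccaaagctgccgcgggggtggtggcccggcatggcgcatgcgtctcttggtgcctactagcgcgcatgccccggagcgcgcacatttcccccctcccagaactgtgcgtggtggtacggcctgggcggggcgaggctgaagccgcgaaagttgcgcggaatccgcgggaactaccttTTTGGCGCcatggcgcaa

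Counted from the start site, the Orc6 window held no TTTNGCGC and 1 CCAAT match, on the reverse strand with its first base at position -54. The Mcm6 window held 3 TTTNGCGC matches, at -110, -106 and -47, of which the first and second overlap on opposite strands, and 2 CCAAT matches. The Mcm3 and Cdt1 windows each held 1 TTTNGCGC match downstream of the start, at 39 and 33. Over the 8 genes with a record, 5 held TTTNGCGC (Mcm3, Mcm5, Mcm6, Mcm7 and Cdt1), and 6 held CCAAT. Mcm2 rose without TTTNGCGC in this window, and Mcm5, Mcm6 and Mcm7, which hold it, did not pass the test against WT in either group. Cdc6 rose too and its record held no TTTNGCGC. Other forms of the E2F site were not searched in any record. However, that record (chr11:98907901-98908200) lies wholly inside the gene annotated by GENCODE, which starts at 98907801. Bases before the GENCODE start of Cdc6 were thus not searched. The Mcm7 records also lie inside its GENCODE gene. Among 27025 genes with such records, 1.57% held TTTNGCGC and 41.1% held CCAAT in any record. Matching letters are a description of these windows and do not show that a factor binds there.

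In WT oocytes, transcripts of the 10 genes lay at very unequal levels. Orc6 was at 341, 395 and 444 FPKM (393 ± 51.6, SD, n = 3), and Gmnn, which encodes the inhibitor of CDT1, was at 294, 357 and 342 FPKM (331 ± 33.0). These 2 transcripts overlapped each other and lay at the 96.3 and 95.9 percentiles of tested genes by WT mean. The mean of Orc6 was 53.7 times that of Mcm2. The loaders and ring subunits were far lower, with WT means of 9.72 ± 2.36 FPKM for Mcm5, 7.61 ± 1.98 for Mcm4, 7.32 ± 2.15 for Mcm2, 5.81 ± 1.92 for Cdt1, 4.69 ± 0.992 for Mcm6, 3.12 ± 2.54 for Mcm7 and 1.59 ± 1.27 for Cdc6. Each neighbour in this order overlapped the next between libraries. Mcm3 came last and was listed at 0, 0 and 1.15 FPKM. Orc6 and Gmnn together made 94.2 to 95.1% of the summed FPKM of the 10 genes in WT, 87.2 to 92.7% in AmcKO, 80.8 to 83.4% in MUT and 70.0 to 83.2% in GcKO. The WT libraries thus lay above all others in this share.

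**Figure D1:**
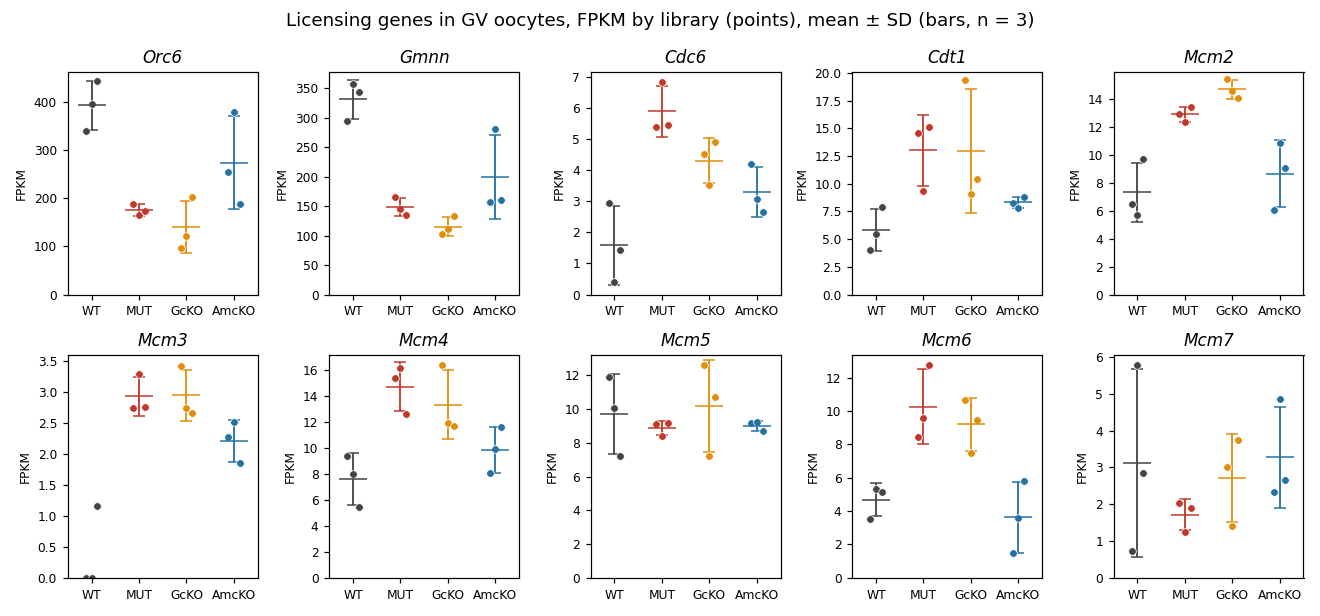
FPKM of the 10 licensing genes in each library (points) of WT, MUT, GcKO and AmcKO oocytes, each gene on its own linear axis from 0, with the mean and SD of 3 libraries as bars where no library was at 0. Orc6 and Gmnn were highest in WT, with all MUT and GcKO libraries below all WT libraries, while Mcm2, Mcm3, Mcm4, Mcm6, Cdc6 and Cdt1 were higher in all MUT and GcKO libraries than in all WT libraries.

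The mutant was compared with WT to ask which stored transcripts differ with the D166G change. Orc6, the recognition complex subunit, was at 189, 166 and 173 FPKM in MUT, each below the lowest WT library, and it fell by 1.15 ± 0.26 on the log2(FPKM + 1) scale (SE, limma, Benjamini-Hochberg adjusted p = 0.00762). Gmnn was at 165, 145 and 135 FPKM in MUT, again with no overlap, and fell by 1.15 ± 0.21 (limma, adjusted p = 0.00174). The inhibitor and the origin-binding subunit were thus the members that fell. Of all tested genes, 11.3% were called lower in MUT and 9.46% higher.

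Both loaders rose in MUT. Cdc6, the ATPase that recruits the ring, was at 2.93, 0.414 and 1.42 FPKM in WT and at 5.39, 6.84 and 5.46 FPKM in MUT, and rose by 1.53 ± 0.35 (limma, adjusted p = 0.00727). Cdt1, which carries the ring to the origin, was at 4.06, 5.50 and 7.86 FPKM in WT and at 14.6, 9.35 and 15.1 FPKM in MUT. All 3 MUT libraries lay above the WT libraries for both genes, and the rise of Cdt1 was 1.05 ± 0.30 (limma, adjusted p = 0.0252).

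The ring subunits did not all move alike. Mcm2 was at 6.53, 5.68 and 9.76 FPKM in WT and at 12.9, 12.4 and 13.4 FPKM in MUT, a rise of 0.77 ± 0.24 (limma, adjusted p = 0.0384). Mcm4 was at 9.39, 7.97 and 5.47 FPKM in WT and at 15.3, 16.2 and 12.6 FPKM in MUT, a rise of 0.89 ± 0.24 (limma, adjusted p = 0.020). No library of one group reached into the other for either gene. Mcm3, listed at 0 in 2 WT libraries, was at 2.74, 3.29 and 2.76 FPKM in MUT, a rise of 1.60 ± 0.33 (limma, adjusted p = 0.00400) whose size depends on the pseudocount. Mcm6 was at 3.55, 5.35 and 5.17 FPKM in WT and at 8.44, 9.56 and 12.8 FPKM in MUT. Its libraries did not overlap either, but the difference of 0.98 ± 0.34 missed the threshold (limma, adjusted p = 0.0528). Mcm5 was at 11.9, 10.1 and 7.21 FPKM in WT and at 9.11, 8.41 and 9.17 FPKM in MUT, and Mcm7 was at 0.732, 5.79 and 2.84 FPKM in WT and at 2.02, 1.25 and 1.89 FPKM in MUT. Both overlapped between the groups, with differences of -0.092 ± 0.24 and -0.40 ± 0.45.

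In all, 2 members were called lower and 5 higher in MUT, and 2 and 6 did not overlap, against 16.9% of tested genes lower and 20.2% higher without overlap. The split moved with the scaling of the libraries. With quantile normalization 0 members were lower and 2 higher (6.41% and 6.70% of tested genes), and with all libraries set to the same FPKM sum 0 were lower and 7 higher (2.23% and 41.3%), which moved the median change of all tested genes from 0.12 to 0.71. The calls of Mcm2, Mcm4 and Cdt1 were lost on leaving out 1 library in 5, 3 and 4 of 6 cases, with adjusted p up to 0.108, 0.0711 and 0.106, and those libraries included MUT replicate 1 each time, without which 4 members were called.

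The same comparison in the oocyte-specific knockout asked which transcripts differ after deletion within the oocyte, and it shared the WT libraries with the mutant comparison. Orc6 was at 97.5, 122 and 202 FPKM in GcKO and fell by 1.54 ± 0.26 (limma, adjusted p = 0.00121). Gmnn was at 102, 111 and 133 FPKM and fell by 1.52 ± 0.21 (limma, adjusted p = 3.0e-04). No GcKO library reached the WT range for either transcript. Of all tested genes, 11.4% were called lower and 8.71% higher in GcKO. These falls passed the test as deposited and under the 3 other scalings, at -0.51 for Orc6 (limma, adjusted p = 0.0389) and -0.49 for Gmnn (adjusted p = 0.0269) with the same FPKM sum.

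Among the loaders, Cdc6 was at 4.51, 3.51 and 4.91 FPKM in GcKO and rose by 1.15 ± 0.35 (limma, adjusted p = 0.0320). Cdt1 was at 19.3, 9.04 and 10.4 FPKM and rose by 1.00 ± 0.30 (limma, adjusted p = 0.0321). GcKO replicate 1 was the highest for Cdt1, and all 3 libraries exceeded WT for both genes. Mcm2 was at 15.5, 14.6 and 14.1 FPKM and rose by 0.95 ± 0.24 (limma, adjusted p = 0.0144). Mcm3 was at 3.42, 2.74 and 2.66 FPKM and rose by 1.60 ± 0.33 (limma, adjusted p = 0.00396). Mcm4 was at 16.4, 11.9 and 11.7 FPKM and rose by 0.75 ± 0.24 (limma, adjusted p = 0.0441). The GcKO libraries lay above WT for these 3 subunits. Mcm6, at 10.7, 7.49 and 9.45 FPKM, also lay above WT in each library, but its difference of 0.85 ± 0.34 missed the threshold (limma, adjusted p = 0.0918). Mcm5 (12.6, 7.21 and 10.7 FPKM) and Mcm7 (3.00, 1.40 and 3.74 FPKM) overlapped WT, with differences of 0.054 ± 0.24 and 0.0053 ± 0.45.

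Again 2 members were called lower and 5 higher, and 2 and 6 did not overlap, against 16.0% of tested genes lower and 18.2% higher. Quantile normalization left 2 lower and 2 higher (5.92% and 6.15% of tested genes), and the same FPKM sum gave 2 lower and 7 higher (2.14% and 42.4%). Without GcKO replicate 1 only 3 members were called (Orc6, Gmnn and Mcm3), and without WT replicate 5 only 4. Direct comparison of GcKO with MUT called 0 of the 10 members by limma, and 0 had an unadjusted p under 0.05, where 0.205% of tested genes were called and 6.60% had such a p. Cdc6 and Gmnn were lower and Mcm2 was higher in all GcKO than in all MUT libraries, as were 6.87% and 6.42% of tested genes. The differences ran from -0.39 ± 0.26 for Orc6 to 0.41 ± 0.45 for Mcm7.

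**Figure D2:**
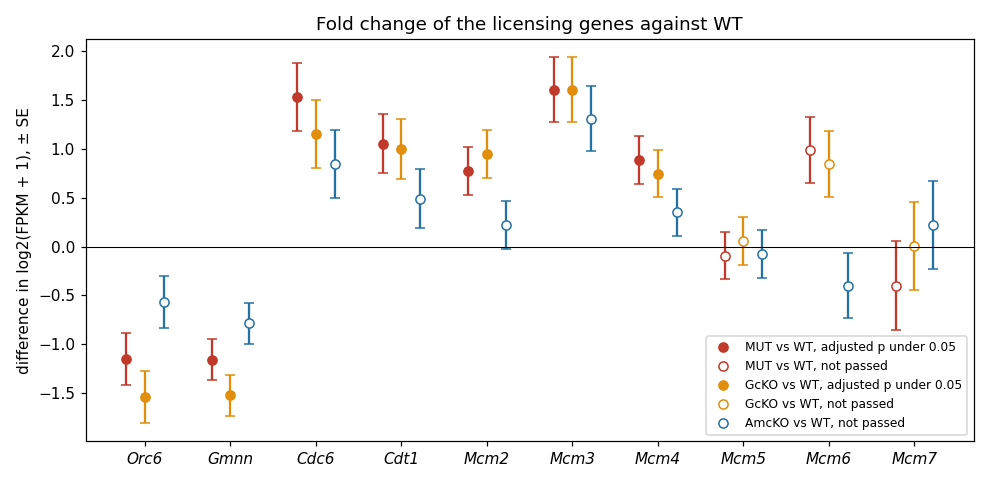
Difference of each group from WT in mean log2(FPKM + 1) with its SE from limma, for the 10 licensing genes. Filled points passed a Benjamini-Hochberg adjusted p under 0.05. Orc6 and Gmnn lie below 0 and Cdc6, Cdt1, Mcm2, Mcm3 and Mcm4 above 0 in both MUT and GcKO, and all AmcKO points are open.

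Deletion in the granulosa cells addressed whether the same transcripts differ when the surrounding somatic cells are targeted. Orc6 was at 255, 378 and 189 FPKM in AmcKO and overlapped WT, with a difference of -0.57 ± 0.26 (limma, adjusted p = 0.320). Gmnn was at 156, 281 and 159.8 FPKM, each below WT, with a difference of -0.78 ± 0.21 (limma, adjusted p = 0.132). Mcm3 was at 2.28, 2.51 and 1.84 FPKM, each above WT, with a difference of 1.31 ± 0.33 (limma, adjusted p = 0.115). Without overlap, 8.61% of tested genes were lower and 9.22% higher. Among the other 7 members besides Orc6, each of which overlapped WT, Mcm6 was at 1.51, 3.56 and 5.80 FPKM and Cdt1 at 8.30, 7.84 and 8.82 FPKM. Limma called 0 of the 10 members, against 0.214% of all tested genes, and 4 members (Orc6, Gmnn, Mcm3 and Cdc6) had an unadjusted p under 0.05, as did 15.6% of tested genes. One member passed without WT replicate 6 (Mcm3, adjusted p = 0.0284) and 1 without AmcKO replicate 5 (Gmnn, adjusted p = 0.0172).

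Set directly against AmcKO, the GcKO oocytes had lower Orc6, by 0.97 ± 0.26 (limma, adjusted p = 0.0479), although GcKO replicate 3 overlapped the lowest AmcKO library. Mcm6 was higher by 1.24 ± 0.34 with no overlap (limma, adjusted p = 0.0468). Of all tested genes, 4.79% were called lower and 0.668% higher. Both calls were near the threshold and were lost with a pseudocount of 0.1 (adjusted p = 0.0536 and 0.0586, limma). The call of Orc6 was also lost without GcKO replicate 1 or 2 or AmcKO replicate 4 or 5, with adjusted p up to 0.233, and that of Mcm6 without any 1 GcKO library or AmcKO replicate 4 or 5, with adjusted p up to 0.188. Gmnn differed by -0.74 ± 0.21 without passing (limma, adjusted p = 0.0575).

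The members that fell were the abundant ones, and those that rose were scarce, a pattern shared by the tested genes at large. Among 607 genes with a mean of 100 to 500 FPKM over the 12 libraries, 60.3% were called lower in MUT and 3.62% higher. Among 6018 genes with a mean of 1 to 20 FPKM, 4.22% were called lower and 13.1% higher. In GcKO the shares were 62.9% and 2.47% of the abundant genes and 4.04% and 12.6% of the scarce ones. Orc6 and Gmnn are in the first range, and the other 8 members are in the second. Within narrower ranges of level, the MUT change of Orc6 lay at the 26.5 percentile of 279 genes between 200 and 500 FPKM, whose median change was -0.80, and that of Gmnn at the 15.5 percentile of 328 genes between 100 and 200 FPKM, whose median was -0.62. In GcKO they lay lower, at the 7.17 and 5.79 percentiles, and in AmcKO, where neither was called, at the 12.2 and 2.74 percentiles.

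Scarce members stood toward the upper end of genes of like level. In MUT, Mcm3 and Cdc6 lay at the 96.5 and 95.8 percentiles of 2027 genes between 2 and 5 FPKM, and Cdt1, Mcm4 and Mcm2 at the 90, 84.6 and 80.1 percentiles of 1050 genes between 10 and 20 FPKM. Mcm7 and Mcm5 lay at the 16.2 and 30.3 percentiles of their ranges. In AmcKO, with no member called, Mcm3, Cdc6 and Cdt1 lay nearly as high, at the 97.2, 89.1 and 81.5 percentiles. In a fit with a loess correction for mean level, chosen after seeing the data, Mcm3 (1.25, adjusted p = 0.0194, limma) and Cdc6 (1.18, adjusted p = 0.0419) were called in MUT, while Orc6 (-0.48, adjusted p = 0.123) and Gmnn (-0.53, adjusted p = 0.0502) were not. In GcKO the same correction left Orc6 (-0.81, adjusted p = 0.0160, limma), Gmnn (-0.84, adjusted p = 0.00637) and Mcm3 (1.22, adjusted p = 0.0239). That makes 2 of 10 members called in MUT and 3 of 10 in GcKO, against 7.50% of tested genes lower and 6.31% higher in MUT and 7.11% and 5.81% in GcKO.

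**Figure D3:**
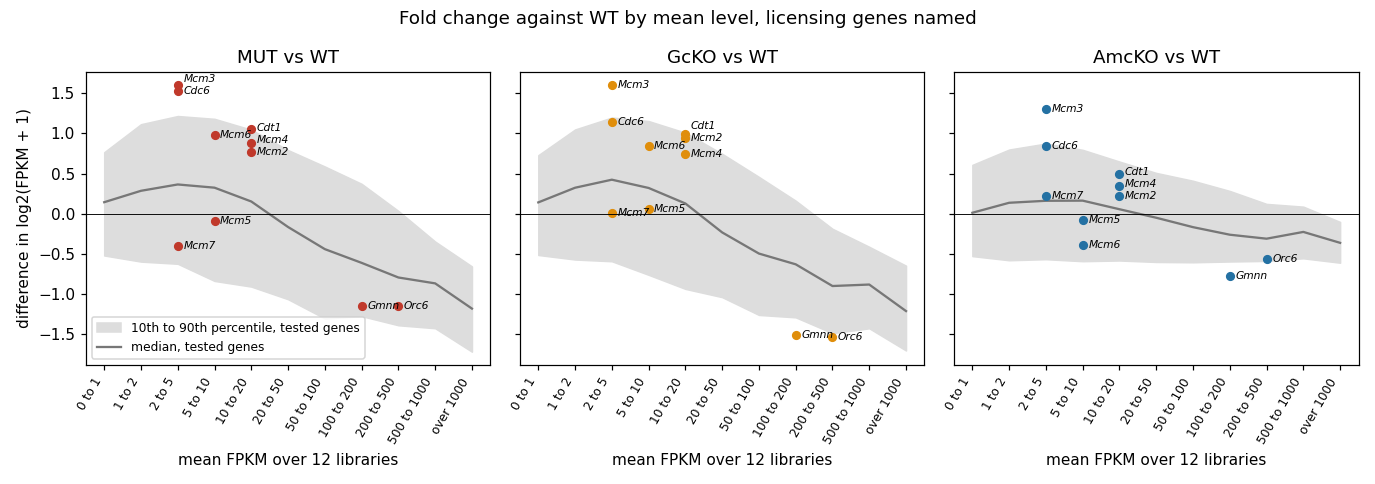
Difference from WT in log2(FPKM + 1) of the 10 licensing genes (points) by range of mean FPKM over the 12 libraries, with the median (line) and the 10th to 90th percentile (grey) of all tested genes in each range. In MUT and GcKO the median of all genes falls from above 0 in the low ranges to below 0 in the high ranges, Orc6 and Gmnn lie below it and Mcm3 and Cdc6 well above it.

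**Figure D4:**
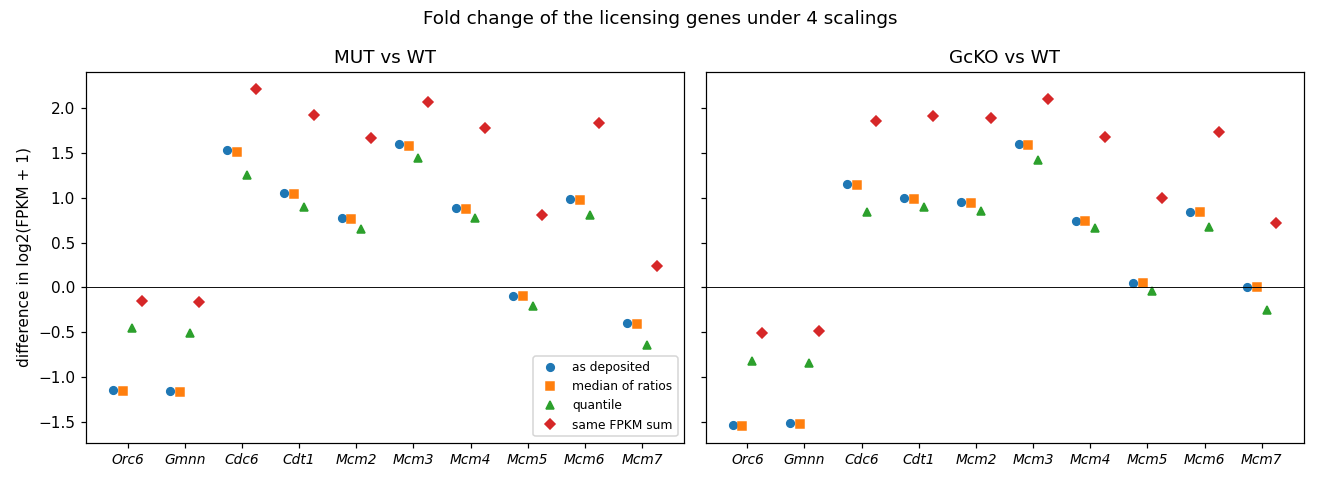
Difference from WT in log2(FPKM + 1) of each licensing gene in MUT and GcKO with FPKM as deposited and under 3 other scalings. With the same FPKM sum every point is higher, and Orc6 and Gmnn in MUT move from -1.15 to -0.16.

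A ratio of 2 genes within a library is free of the scaling of that library, so ratios to Orc6 were taken for the 8 members above 0 in every library. The mean log2 ratio of Gmnn to Orc6 was -0.24 ± 0.12 in WT (SD, n = 3), -0.25 ± 0.087 in MUT, -0.22 ± 0.34 in GcKO and -0.46 ± 0.23 in AmcKO. The means of WT, MUT and GcKO thus lay close together, although the GcKO libraries ran from -0.60 to 0.064. The AmcKO mean was lower, with libraries that overlapped WT. Ring subunits gained on Orc6. Mcm2 had log2 ratios to Orc6 of -5.70, -6.12 and -5.51 in WT, -3.87, -3.75 and -3.68 in MUT, -2.66, -3.06 and -3.84 in GcKO and -5.39, -5.12 and -4.38 in AmcKO. The ratio was 4.03 times the WT value in MUT, 6.04 times in GcKO and 1.76 times in AmcKO, and no library of these groups overlapped WT.

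Across the ring, Mcm4 had 4.38 and 5.17 times its WT ratio to Orc6 in MUT and GcKO, Mcm6 4.88 and 5.77 times, and Mcm5 2.08 and 3.04 times, each with no overlap. Apart from Gmnn, only the ratio of Mcm7 overlapped WT in both groups, at 1.63 and 3.20 times, and without WT replicate 5 it lay apart in both, at 2.59 and 5.06 times. Of the loaders, Cdt1 reached 5.05 and 6.36 times and Cdc6 10.9 and 10.4 times. The value of Cdc6 rested on WT replicate 5, at 0.414 FPKM, without which it was 6.35 and 6.07 times, and on WT replicate 4, without which it was 18.2 and 17.4 times. The MUT and GcKO libraries lay apart from WT in both cases. In AmcKO the ratios of Mcm2 and Cdt1 (2.202 times) lay above WT in every library, and the other 6 overlapped it with all libraries in use. Each of these 6 lay apart from WT on leaving out some single library, so that without WT replicate 4 the AmcKO ratio of Cdc6 lay above WT (6.71 times), and without AmcKO replicate 6 that of Mcm6 lay below it (0.632 times). Scarce transcripts in general also rose relative to abundant ones. The ratios carry no test, and whether these gains are particular to licensing was not tested.

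**Figure D5:**
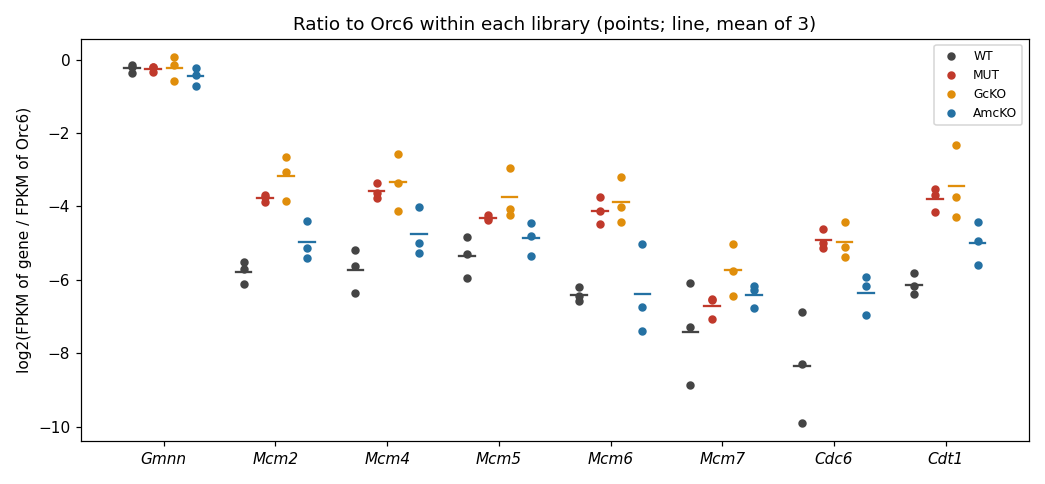
Log2 ratio of the FPKM of 8 licensing genes to that of Orc6 within each library (points), with the mean of 3 libraries as a line. The mean of Gmnn stays near -0.24 in WT, MUT and GcKO, whereas Mcm2, Mcm4, Mcm5, Mcm6, Cdc6 and Cdt1 lie higher in all MUT and GcKO libraries than in all WT libraries.

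Relative to Rpl19, a ribosomal protein gene that itself fell by 0.88 ± 0.23 in MUT (limma, adjusted p = 0.0170) and by 0.78 ± 0.23 in GcKO (adjusted p = 0.0305), Orc6 was at log2 ratios of 1.04, 1.14 and 0.83 in WT and 0.65, 0.58 and 0.98 in MUT, which overlap. In GcKO they were -0.084, 0.24 and 0.57, all below WT. Gmnn showed the same order, at 0.83, 0.99 and 0.45 in WT, 0.46, 0.37 and 0.63 in MUT and -0.020, 0.099 and -0.026 in GcKO. The choice of Rpl19 as the reference thus removed the separation of MUT from WT for both transcripts.

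Depth limits the scarce members most. By a rough estimate from the steps between values and the longest annotated coding transcript, Orc6 rested on 291 to 390 fragments in WT. In MUT and GcKO it rested on 287 to 350 and 202 to 270. Gmnn rested on 193 to 231 in WT, 173 to 235 in MUT and 136 to 189 in GcKO. Relative to MUT replicate 2, estimated fragments per library were 0.718 to 0.878 in WT and 0.743 to 1.11 in GcKO. The other MUT libraries were at 0.800 and 0.926. The estimates of Orc6 and Gmnn thus overlapped between WT and MUT, where their FPKM did not, and lay below WT in GcKO. The part of library scale in these falls was not tested. Mcm2 rested on 10 to 20 fragments in WT and 51 to 57 in MUT, Cdt1 on 5 to 10 and 28 to 40, Cdc6 on 1 to 8 and 29 to 43, and Mcm3 on 0 to 2 and 9 to 14. Mcm7 stayed at 1 to 14 in all groups.

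Other genes of the pathway were taken from 5 lists of 88 genes, 81 of them tested. In MUT 10 were lower and 11 higher by limma, and in GcKO 10 were lower and 12 higher, with median changes of 0.30 and 0.27 against 0.12 for all tested genes in each. These 12 include Pola2 and Dna2, whose calls are not read as results, as given below. Of all tested genes, 11.3% were lower and 9.46% higher in MUT and 11.4% and 8.71% in GcKO, and the counts of each list are to be read against these shares. With the same FPKM sum the counts were 2 lower and 46 higher in MUT (2.23% and 41.3% of tested genes) and 1 lower and 50 higher in GcKO (2.14% and 42.4%), and with quantile normalization they were 3 and 7 and 4 and 9. In AmcKO against WT and in GcKO against MUT, 0 were called (0.214% and 0.205% of tested genes). In GcKO against AmcKO 6 were lower and 0 higher (4.79% and 0.668% of tested genes).

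Among the 11 origin recognition and licensing partners, 3 were lower in both MUT and GcKO, and they are named here after their values were seen. Orc5, a further subunit of the recognition complex, fell from 789 ± 142 FPKM in WT to 430.4 ± 18.4 in MUT (-0.86, limma, adjusted p = 0.00769) and 458 ± 125 in GcKO (-0.81, adjusted p = 0.0108). Orc4 fell from 87.0 ± 7.66 FPKM to 48.3 ± 3.49 in MUT (-0.84, limma, adjusted p = 0.00230) and 57.6 ± 7.81 in GcKO (-0.59, adjusted p = 0.0171). Mcmbp, which binds MCM subunits, fell from 86.8 ± 1.87 FPKM to 49.98 ± 6.73 in MUT (-0.79, limma, adjusted p = 0.00316) and 40.0 ± 4.59 in GcKO (-1.11, adjusted p = 3.7e-04). The subunit genes Orc1, Orc2 and Orc3 had WT means of 7.28, 4.62 and 2.05 FPKM and were called in neither group. With the same FPKM sum 0 of the 11 were lower and 6 higher in MUT, and 0 lower and 9 higher in GcKO, and with quantile normalization 1 was lower and 1 higher in each. Kat7, a histone acetyltransferase at origins, rose in both (1.36 and 1.30), and Mcm10 rose in MUT (0.85, limma, adjusted p = 0.0467).

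In licensing control by degradation and kinases, 3 of 18 genes were lower and 1 higher in each group. With the same FPKM sum 2 were lower and 11 higher in MUT, and 1 was lower and 9 higher in GcKO. With quantile normalization 2 were lower in each, with 0 higher in MUT and 3 in GcKO. Skp1a, an adaptor of SCF ubiquitin ligases, fell from 9759 ± 268 FPKM in WT to 2483 ± 242 in MUT (-1.98, limma, adjusted p = 9.7e-05) and 2863 ± 680.4 in GcKO (-1.80, adjusted p = 1.2e-04). Rbx1, the RING subunit of cullin ligases, fell from 196 ± 20.9 to 70.2 ± 15.3 FPKM in MUT (-1.49, limma, adjusted p = 2.8e-04) and to 79.5 ± 15.1 in GcKO (-1.31, adjusted p = 6.4e-04). Cdc25a, a phosphatase that activates cyclin-dependent kinases, rose from 3.07 FPKM to 8.92 in MUT (1.502, limma, adjusted p = 0.0218) and 9.62 in GcKO (1.56, adjusted p = 0.0176).

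Of 30 replication fork genes tested, 3 were lower and 2 higher in MUT, and 3 were lower and 5 higher in GcKO. With the same FPKM sum 0 were lower in either group, with 14 higher in MUT and 16 in GcKO. The falls named next were thus not called under that scaling. With quantile normalization 0 were lower and 2 higher in MUT, and 1 was lower and 2 higher in GcKO. Tipin, a fork protection gene, fell from 566 FPKM in WT to 248.6 in MUT (-1.18, limma, adjusted p = 0.00108) and 239 in GcKO (-1.28, adjusted p = 6.4e-04). Pole4, a small subunit of DNA polymerase epsilon, fell from 1205 FPKM to 601 in MUT (-0.9999, limma, adjusted p = 7.2e-04) and 501 in GcKO (-1.28, adjusted p = 1.6e-04). Pold3 rose from 12.7 FPKM to 34.2 in MUT (1.45, limma, adjusted p = 0.00998) and 28.6 in GcKO (1.19, adjusted p = 0.0270). Pola2 rose from 0.474 ± 0.410 FPKM in WT to 2.79 in GcKO (1.38, limma, adjusted p = 0.0187) and was at 2.06 FPKM in MUT (1.05, adjusted p = 0.0642). At that mean and SD no WT library can have reached 1 FPKM, so Pola2 was tested only because other groups did. Dna2, called higher in GcKO (1.27, limma, adjusted p = 0.0410), was at 0.262 ± 0.454 FPKM in WT and was tested only for the same reason. Neither call is therefore read as a result, although both are counted among the 5 fork genes and 12 pathway genes higher in GcKO. For scale, 1 fragment in a 1 kb transcript weighed 1.67 to 1.95 FPKM in WT. Pold3 and Pola2 both encode subunits of replicative polymerases. Of 9 E2F and pocket protein genes tested, 0 were lower, with 3 higher in MUT and 2 in GcKO. With the same FPKM sum 7 and 6 were higher, and with quantile normalization 1 in each. E2f1, at 0.631 ± 0.625 FPKM in WT, was also below the weight of such a fragment there. It rose to 3.25 FPKM in MUT (1.41, limma, adjusted p = 0.0219) and 3.60 in GcKO (1.51, adjusted p = 0.0154). Of 13 origin firing genes tested, 1 was lower and 3 were higher in each group. With the same FPKM sum 0 were lower, with 8 higher in MUT and 10 in GcKO. With quantile normalization 0 were lower, with 3 and 2 higher.

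The genes most like 4 of the members were sought among 4759 genes with a mean FPKM of at least 5, by the root mean square difference of log2(FPKM + 1), centred on each gene's mean, over the 12 libraries. Closest to Orc6 were Acot13 (0.117), Ifitm6 (0.133) and 0610009B22Rik (0.151), and Gmnn came at rank 32 (0.202). Closest to Gmnn were Psma5 (0.139), Btf3 (0.157) and Gm12942 (0.165), with Orc6 at rank 26. Among the closest to Mcm2 were Bod1l (0.166) and Epb4.1l2 (0.190), with Cdt1 at rank 260 (0.334), and closest to Cdt1 were Rfwd2 (0.170), Ankrd17 (0.175) and Nin (0.185), with Mcm2 at rank 216. Orc6 and Gmnn were thus close to each other and far from Mcm2, which stood at rank 3962 for Orc6. FPKM as deposited was used, so shifts shared by abundant or by scarce genes enter these distances. Their part was not tested.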

How the data were processed

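RNA-Seq values of 12 libraries of GV-stage oocytes were used, 3 each of WT, MUT, GcKO and AmcKO, grouped by their labels. Per the labels and the study's methods, reads were mapped with TopHat2 2.0.13 against mm10, and the authors deposited 1 FPKM value per gene and library, made with Cufflinks 2.2.1. The tools listed with the libraries also include Cuffnorm, and how the scale of each library was set was not checked here. The gene annotation is not given in the sources used here. Columns with the authors' own Cuffdiff comparisons (log2 fold change, p and q) were left aside. No FPKM column was left unmapped.

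FPKM values carry no counts, so the depth is unknown, and fragment numbers are rough estimates. A listed 0 may stand for a failed estimate. Genes that reached 1 FPKM in any library were tested in 1 limma fit (limma 3.58.1, R 4.3.3) of log2(FPKM + 1) with a variance trend, all 12 libraries, 8 residual degrees of freedom and 5 contrasts, with calls made below 0.05 after Benjamini-Hochberg adjustment over the 11233 genes. Fold changes are on the log2(FPKM + 1) scale, which understates changes of low genes. A fold change over 2, the study's own further criterion, was an alternative. Within-library ratios, ranges of level and likeness were computed in Python 3.11.15 with pandas 2.3.3 and carry no test. The code was tested on simulated data. Coordinates came from GENCODE M21 (GRCm38), and promoters from RefSeq (GRCm38.p6), searched on both strands for TTTNGCGC and CCAAT.

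The members, the gene lists and the tests were chosen with earlier results of these data known. All members are named. From the other lists, up to 3 called genes with the largest change in each direction against WT are named, and for Orc6, Gmnn, Mcm2 and Cdt1 the 3 most like genes, of which 1 is not reported here. Alternatives were a pseudocount of 0.1, no filter, a filter on a mean of 5 FPKM, median-of-ratios, quantile and same-sum scaling, no variance trend, only the 2 groups compared, a fold change over 2 besides the call, a threshold of 0.01, each library left out, the label number as a block and, chosen after seeing the data, a loess correction for mean level and ratios with each library left out. Mcm4 and Gmnn promoters and the proteins were not analysed here.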

Additional observations from a re-analysis of the deposited data

How the results depend on the processing

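Counts of members called moved by over 1.5 times under these settings. In MUT against WT, 7 became 2 with quantile normalization, 2 with the loess correction and 4 at an adjusted p under 0.01, and 4 to 6 with 1 library left out. In GcKO against WT, 7 became 4 with quantile normalization, 3 with the loess correction, 2 with only the 2 groups compared, 4 at a fold change over 2 and 3 at an adjusted p under 0.01, and 3 to 6 with 1 library left out, lowest without GcKO replicate 1. In AmcKO against WT, 0 became 0 to 1 on leaving out a library. In GcKO against AmcKO, 2 became 0 with a pseudocount of 0.1, no filter, quantile normalization, the loess correction, no variance trend, only the 2 groups compared and an adjusted p under 0.01, 1 at a fold change over 2, 4 with the same FPKM sum, and 0 to 2 with 1 library left out. Pathway genes called were 21, 10 and 48 in MUT, 22, 13 and 51 in GcKO, and 6, 2 and 32 in GcKO against AmcKO, as deposited, with quantile normalization and with the same FPKM sum. The loess correction and the other scalings remove or add a shift shared by genes or libraries, and the cause of the changes in these counts was not tested. Median-of-ratios scaling moved none of these counts by over 1.5 times. Shares of all tested genes are not given here for the settings of pseudocount, filter, variance trend, groups compared, fold change, threshold and left-out library. Counts under those settings therefore cannot be set against all genes.

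Signs turned for members near 0. With the same FPKM sum, Mcm5 was 0.81 in MUT (limma, adjusted p = 0.0349) and 0.19 in AmcKO against WT, Mcm7 was 0.24 in MUT against WT and 0.34 in GcKO against AmcKO, and Gmnn was 0.0013 in GcKO against AmcKO. With quantile normalization Mcm5 was -0.046 and Mcm7 -0.25 in GcKO against WT, and Mcm3 was -0.020 in GcKO against MUT, and with the loess correction these were -0.14, -0.40 and -0.027. With 1 library left out, Mcm5 against WT ran from -0.27 to 0.053 for MUT, from -0.13 to 0.26 for GcKO and from -0.25 to 0.071 for AmcKO, from -0.011 to 0.35 in GcKO against MUT and from -0.028 to 0.34 in GcKO against AmcKO. Mcm7 ran from -0.92 to 0.065, -0.51 to 0.47 and -0.30 to 0.69 against WT in the same order, and from -0.42 to 0.072 in GcKO against AmcKO. In GcKO against MUT, Mcm3 ran from -0.084 to 0.066, Mcm6 from -0.25 to 0.019 and Cdt1 from -0.36 to 0.15. Log2 ratios to Orc6 with 1 library left out, chosen after seeing the data, turned in sign for Gmnn (-0.071 to 0.045 for MUT and -0.12 to 0.21 for GcKO against WT), Mcm7 in MUT (-0.016 to 1.37) and Mcm6 in AmcKO (-0.66 to 0.53). Orc6, Gmnn and Mcm3 kept their calls in MUT and GcKO against WT with each library left out, and so did Cdc6 in MUT. Calls of Mcm2, Mcm4 and Cdt1 in both groups, of Cdc6 in GcKO and of Orc6 and Mcm6 in GcKO against AmcKO were each lost in 1 to 5 of 6 cases.

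The replicate numbers are shared by GcKO with MUT and by AmcKO with WT. Correlations of deviations from the group means between same-numbered libraries ran from -0.041 to 0.041, so the numbers were not taken to pair the libraries, and with the replicate number as a block 0 members were called in both comparisons.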
